A study of Homo sapiens with 5 samples.

Results

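The gene TARP lies inside the T cell receptor gamma (TRG) locus on human chromosome 7, next to STARD3NL. Its surroundings were described by the peaks of 2 histone marks in VCaP cells. All peaks that overlapped chromosome 7 from 38200000 to 38450000 in hg19 were taken, which gave 134 peaks out of 364358 in the whole series. They comprised 21 and 30 peaks of acetylated histone H3 lysine 27 (H3K27ac) replicates 1 and 2. Monomethylated histone H3 lysine 4 (H3K4me1) contributed 42 and 41 peaks in replicates 1 and 2. VCaP is an established, androgen-responsive prostate cancer line, here a single line grown in DMEM with fetal bovine serum. Chromatin immunoprecipitation used Abcam antibodies, with 2 libraries per mark and 1 input library. All groups share the line, the medium and the fixation, and the labels name no treatment, transgene or knockout. The input library was not analysed here as a sample.

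The window was chosen by its H3K27ac, since it held one of the largest H3K27ac domains of these lists. Values that involve H3K27ac in the window are therefore given as a description, with no p-value. Within the window, intervals were set from approximate gene positions in hg19. STARD3NL was taken as about 38220000 to 38270000, TARP as about 38299000 to 38305000, and the end of the TRG locus as about 38410000. The remaining intervals are the stretch before STARD3NL, the stretch between STARD3NL and TARP, the rest of the TRG locus beyond TARP, and the stretch past the locus. Prostate and T cell marker genes were not located, because no other gene positions of hg19 were used here.

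In T cells that carry gamma-delta receptors, the TRG locus is cut and rejoined so that 1 variable and 1 joining segment lie before a constant segment. TARP, the T cell receptor gamma alternate reading frame protein, needs no such joining. It is translated from a transcript of the constant part of the locus in a different reading frame, and is known from prostate and breast cancer cells, where androgen raises it. STARD3NL encodes a cholesterol-binding membrane protein of late endosomes. H3K27ac marks active promoters and enhancers. H3K4me1 marks enhancers and promoter flanks, and is usually low over active start sites, where H3K4 carries more methyl groups.

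The order of genes was read from the RefSeq gene table of GRCh38.p14, without its coordinates. Going up the chromosome, STARD3NL was followed by TRGC2, TRGJ2, TRGJP2, TARP, TRGJP1, the variable segments from TRGV11 to TRGV1, and AMPH, the gene of the synaptic protein amphiphysin. The table lists 2 constant segments, 5 joining segments, 6 variable segments and 8 variable pseudogenes. The RefSeq model of TARP overlaps TRGC1, TRGJ1 and TRGJP. TARP is read towards lower coordinates. The TARP interval was set approximately, so it may not contain the whole model or its start site.

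One of the 2 genes, STARD3NL, matched an entry of the RefSeq promoter table (GRCh38.p14); TARP did not. The sequence is shown because an H3K27ac region lay at the low end of the STARD3NL interval. It runs 5′ to 3′ on the plus strand from 250 bases before to 50 after the annotated start, chr7:38177995-38178294 in GRCh38.p14. These coordinates are of another build than the peaks and cannot be set against them. Capitals mark matches to a CCAAT box, the palindrome TGACGTCA and a GC box.
STARD3NL promoter: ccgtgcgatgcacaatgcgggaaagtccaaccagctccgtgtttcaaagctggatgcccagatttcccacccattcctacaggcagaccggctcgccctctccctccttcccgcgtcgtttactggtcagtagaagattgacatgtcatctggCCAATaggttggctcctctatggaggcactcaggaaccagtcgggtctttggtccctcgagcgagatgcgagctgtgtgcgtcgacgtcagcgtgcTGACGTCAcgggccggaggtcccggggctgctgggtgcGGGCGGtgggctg

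The matches began at positions -97, -1 and 38 from the start site, counted without a position 0. CCAAT was found in 34.6% of 35116 promoters of that length in the table, TGACGTCA (the cyclic AMP response element) in 1.85% and the GC box GGGCGG in 44.95%, on either strand. TGACGTCA was added to the search after the sequence had been seen. The other letters searched on both strands had no match. These were the full androgen response element (in 0.00285% of promoters), the AGAACA that makes up each arm of it (14.8%), and TGTTTAC (3.42%) and TATTTAC (2.67%) for FOXA1. CCGGAA for ETS factors (17.2%) and the TATA box TATAAA (11.5%) had none either. Of its bases, 61.3% were G or C, and it held 23 CG pairs, against medians of 58.7% and 14 over all promoters.

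H3K27ac covered more of the window than H3K4me1 in every library. H3K27ac peaks covered 71.9 kb in replicate 1 and 66.2 kb in replicate 2, or 28.8 and 26.5% of the window. H3K4me1 peaks covered 34.1 kb (13.6%) in replicate 1 and 53.0 kb (21.2%) in replicate 2. The mean was 69.0 ± 4.03 kb for H3K27ac and 43.6 ± 13.3 kb for H3K4me1 (SD, n = 2 each), a ratio of 1.59. Without H3K4me1 replicate 2 the ratio was 2.02, and without H3K4me1 replicate 1 it was 1.30. The H3K4me1 libraries thus differed from each other more than the H3K27ac libraries did. Genome-wide, H3K4me1 replicate 2 also covered more than replicate 1, with 112.1 against 72.4 Mb, while the H3K27ac libraries covered 73.2 and 67.8 Mb.

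H3K4me1 had more peaks than H3K27ac in the window, as in the lists as a whole, and its widest peaks were narrower. Over the autosomes and chromosome X the lists held 54763 and 64845 H3K27ac peaks and 118231 and 125320 H3K4me1 peaks. The widest H3K27ac peaks were 21108 bp in replicate 1 and 16116 bp in replicate 2, and the widest H3K4me1 peaks 3799 and 5291 bp. Of H3K27ac peaks, 4 in each library reached 5 kb, and of H3K4me1 peaks 0 in replicate 1 and 1 in replicate 2. The shares of all peaks that reached 5 kb are not given here, so nothing is read from these counts about this locus. The median widths overlapped between marks. They were 1258 and 595 bp in H3K27ac replicates 1 and 2, and 577.5 and 998 bp in H3K4me1 replicates 1 and 2. The library with the higher median was thus replicate 1 for H3K27ac and replicate 2 for H3K4me1.

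**Figure D1:**
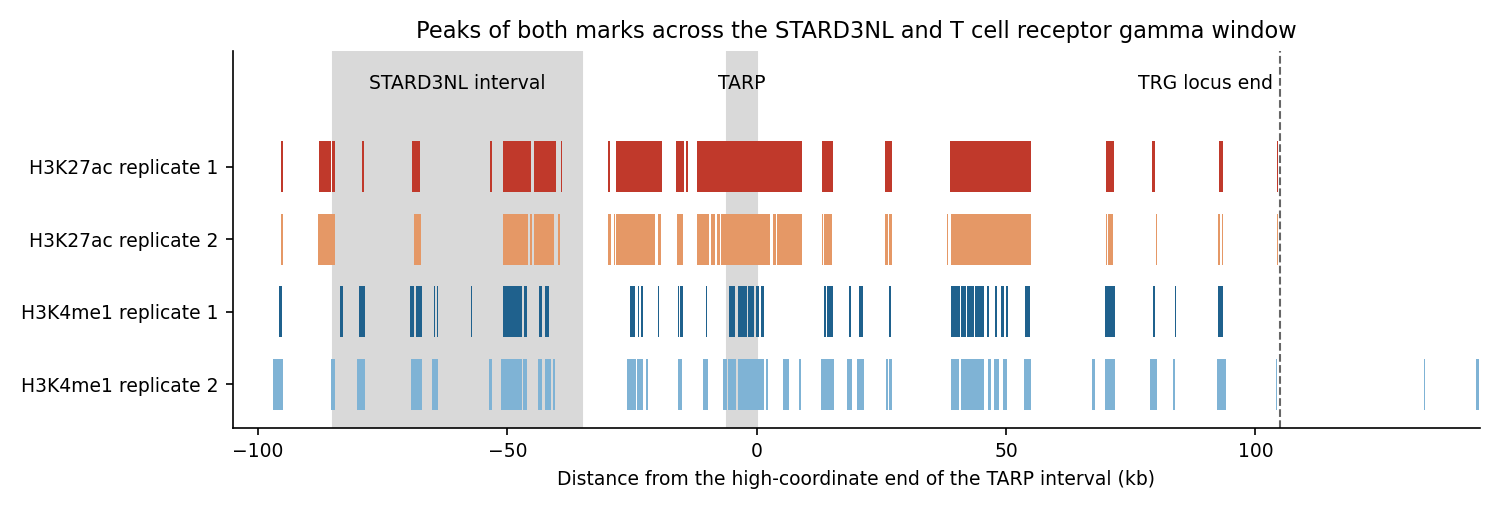
Peaks of the 4 libraries (rows) along the window, as distance in kb from the high-coordinate end of the TARP interval; each bar is 1 peak and grey bands are the STARD3NL and TARP intervals. H3K27ac forms a block of 21.1 kb across TARP and one of 16.2 kb inside the TRG locus, and no H3K27ac peak lies past the locus end (dashed line).

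Few stretches of the genome carried as much H3K27ac. The autosomes and chromosome X were divided into 12151 other windows of 250 kb. Of these, 2 held more H3K27ac in replicate 1 and 3 in replicate 2. The median window had 1.22 and 1.09% of its length covered, and the highest 36.3 and 34.9%. For H3K4me1, 82 windows held more than the TRG window in replicate 1 and 38 in replicate 2, so the TRG window was also among the top 1% for H3K4me1. The window was chosen for its H3K27ac, and these ranks carry no test.

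Relative to its H3K27ac, the TRG window had less H3K4me1 than most windows rich in H3K27ac. Among the 122 windows in the top 1% by mean H3K27ac, the median ratio of H3K4me1 to H3K27ac coverage was 0.885. The TRG window had a ratio of 0.631, from a mean H3K27ac coverage of 27.6% and H3K4me1 coverage of 17.4%. A lower ratio was found in 27 of the 122 windows (22.1%). A low ratio is favoured where a window is picked for high H3K27ac, and this is a description of 1 window.

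**Figure D2:**
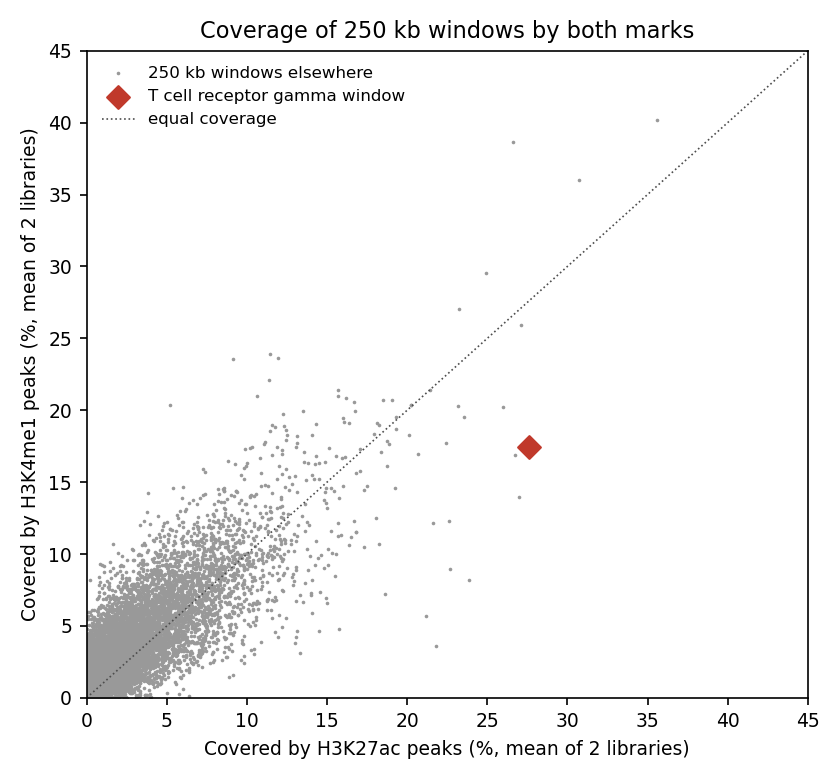
Each grey point is a 250 kb window of the autosomes or chromosome X, placed by the percentage of its length covered by H3K27ac (x) and H3K4me1 (y), each the mean of 2 libraries. The TRG window (diamond, 27.6 and 17.4%) lies below the dotted line of equal coverage.

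Of the 6 intervals, which differ in length, that of TARP had the highest coverage by both marks. The 6 kb of the TARP interval were covered to 100% by H3K27ac in both libraries, and by H3K4me1 to 72.0% in replicate 1 and 89.1% in replicate 2. In the rest of the TRG locus the coverage was 30.3 and 28.4% for H3K27ac and 15.3 and 24.1% for H3K4me1. In the STARD3NL interval it was 26.5 and 23.6% for H3K27ac and 20.1 and 27.2% for H3K4me1. There the libraries of the marks overlapped, unlike in the TARP interval and the rest of the TRG locus, where each H3K27ac library lay above each H3K4me1 library.

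The widest gap between the marks was found between STARD3NL and TARP, the stretch that in RefSeq order holds TRGC2, TRGJ2 and TRGJP2. H3K27ac covered 61.9 and 52.3% of these 29 kb, and H3K4me1 10.6 and 19.4%. The 20 kb before STARD3NL had 14.4 and 17.1% H3K27ac and 3.09 and 11.9% H3K4me1. Past the TRG locus, towards AMPH, H3K27ac had 0 peaks in both libraries and H3K4me1 had 0 in replicate 1 and 2 in replicate 2 (1.88% covered). From 38409583 to 38438788, 29.2 kb carried no peak of any library, the longest such stretch of the window. With the window moved out by 50 kb at each end, the H3K27ac count did not change, and the mean H3K4me1 count went from 41.5 to 42.5.

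**Figure D3:**
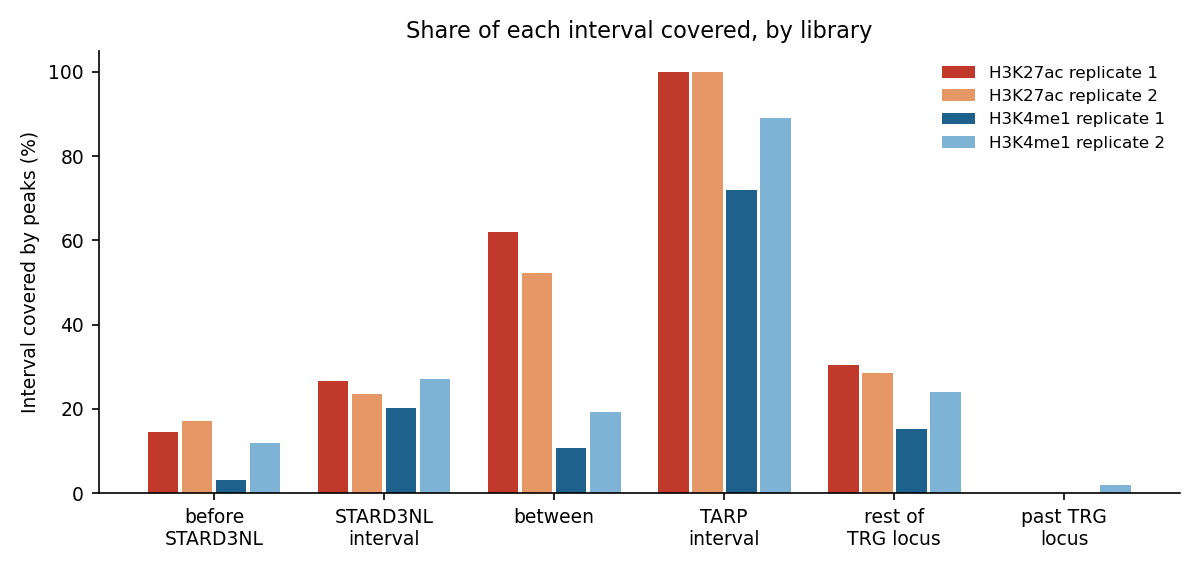
Percentage of each interval covered by peaks (y, from 0) in the 4 libraries (bars). The TARP interval is covered completely by H3K27ac and to 72.0 and 89.1% by H3K4me1, and between STARD3NL and TARP H3K27ac exceeds H3K4me1 in each library.

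Of the marked length, a larger share of H3K27ac than of H3K4me1 lay on the TRG side of STARD3NL, from 38270000 to 38410000. This part makes up 56.0% of the window. It held 77.6 and 77.0% of the H3K27ac length and 68.7 and 68.5% of the H3K4me1 length. The means were 77.3 ± 0.371% and 68.6 ± 0.170% (SD, n = 2 each), a difference of 8.72 points. The window was chosen for its H3K27ac, which bears on the H3K27ac share, so this difference is a description. The direction depended on where the line was drawn. With the division at 38299000, which leaves out the stretch before TARP, the difference (H3K27ac minus H3K4me1) was -5.39 points.

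The H3K27ac region over TARP was the widest of the window. It ran from 38292966 to 38314073 (21108 bp) and ranked 6 by width among 47128 replicated H3K27ac regions. A replicated region is a merged stretch of overlapping peaks with at least 1 peak of each library of the mark. In replicate 1 it was a single peak. In replicate 2 it was 6 peaks, separated by gaps of 269 to 526 bp, the widest of 9814 bp from 38297884 to 38307697. Each list has its own smallest gap, and with a common joining distance of 232 bp replicate 2 still had 6 peaks. The outer edges differed by only 83 bp at the low end and 98 bp at the high end.

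H3K4me1 was concentrated in the middle of that region, over TARP. In the 6.03 kb below the TARP interval, H3K4me1 covered 3.46% in replicate 1 and 27.3% in replicate 2. Over TARP it covered 72.0 and 89.1%, and in the 9.07 kb above 10.4 and 37.6%. H3K27ac covered 100 and 80.4% below and 100 and 89.6% above. The H3K4me1 over TARP formed a region from 38301167 to 38306457 (5291 bp), with 4 peaks in replicate 1 and 1 in replicate 2. It was the widest H3K4me1 region of the window and ranked 370 among 84838. It was preceded by a region of 1515 bp from 38299296 to 38300810. On both sides of it, stretches had H3K27ac of both libraries and H3K4me1 of neither. On the high-coordinate side, from which TARP is read, they included 38309112 to 38310303 and 38311430 to 38313411 (1192 and 1982 bp). On the low-coordinate side they included 38293049 to 38294226 and 38295822 to 38296653 (1178 and 832 bp).

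**Figure D4:**
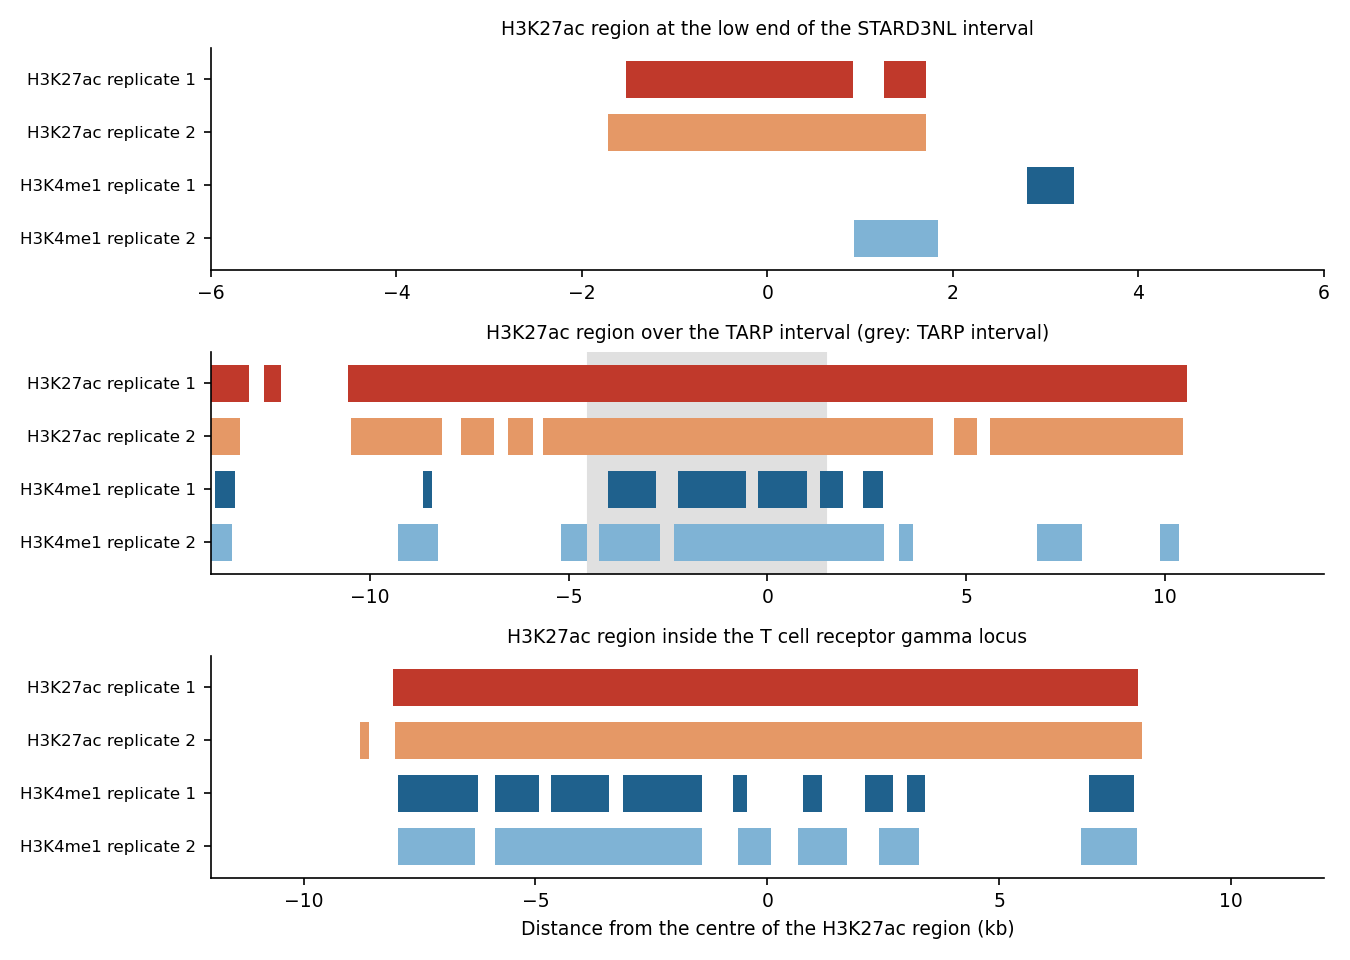
Peaks of the 4 libraries around 3 H3K27ac regions, as distance in kb from the centre of each region. H3K4me1 overlaps the region at the STARD3NL end in replicate 2 only, at its high-coordinate edge (top), gathers over the TARP interval (middle, grey) and lies mainly towards low coordinates in the region inside the TRG locus (bottom).

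The other large block lay inside the TRG locus, beyond TARP. It ran from 38343846 to 38360001 (16156 bp), ranked 15 of 47128, and was a single region in both libraries, with peaks of 16075 and 16116 bp. Its edges differed by 40 and 81 bp. H3K4me1 covered 51.2% of it in replicate 1, in 9 peaks, and 61.9% in replicate 2, in 6 peaks. When the block was cut into parts of equal length, the low-coordinate part was covered to 73.1 and 83.8% and the high-coordinate part to 29.4 and 40.0%. From 38355327 to 38358683 (3357 bp) H3K27ac was present in both libraries and H3K4me1 in neither, the longest such stretch of the window. This stretch lay between an H3K4me1 region of 1298 bp from 38354029 to 38355326 and one of 1219 bp at the high end of the block. The widest H3K4me1 region of the block, 4478 bp from 38346041 to 38350518, was the next widest of the window after that over TARP.

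The other regions of 5 kb or more lay at the far end of STARD3NL and just beyond it. The region from 38254032 to 38259857 (5826 bp) was covered by H3K4me1 to 73.9 and 78.3%, mostly by a region of 4138 bp from 38253808 to 38257945. It was followed at 38260231 to 38264702 by an H3K27ac region of 4472 bp with 29.2 and 58.9% H3K4me1. The region from 38276724 to 38286091 (9368 bp), between STARD3NL and TARP, had 22.0 and 34.1%. In all 4 regions of 5 kb or more, the low-coordinate part of equal length held more H3K4me1 than the high-coordinate part in both libraries. For the region from 38254032 the values were 96.1 and 100% against 51.8 and 56.6%. The comparison of these parts was made after their values had been seen. It was not made for the wide H3K27ac regions elsewhere, so nothing is read from it about this locus.

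Regions this wide were common here. Of 15 replicated H3K27ac regions in the window, 4 (26.7%) reached 5 kb, against 2.44% of all 47128, and since H3K27ac chose the window nothing is read from this. The H3K4me1 coverage of these 4 is set beside that of all wide regions, themselves included. Over all wide regions it ranged from 0 to 100% in both H3K4me1 libraries. Over all 1152 H3K27ac regions of 5 kb or more, the median H3K4me1 coverage was 47.0% in replicate 1 and 59.9% in replicate 2. The region over TARP had less, with 25.9 and 49.3%, and 28.5 and 40.0% of wide regions lay below it. The region inside the TRG locus was near the middle, with 54.5 and 51.9% of wide regions below it. The region from 38254032 lay higher (81.3 and 69.1% below) and that from 38276724 lower (25.2 and 26.6% below).

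**Figure D5:**
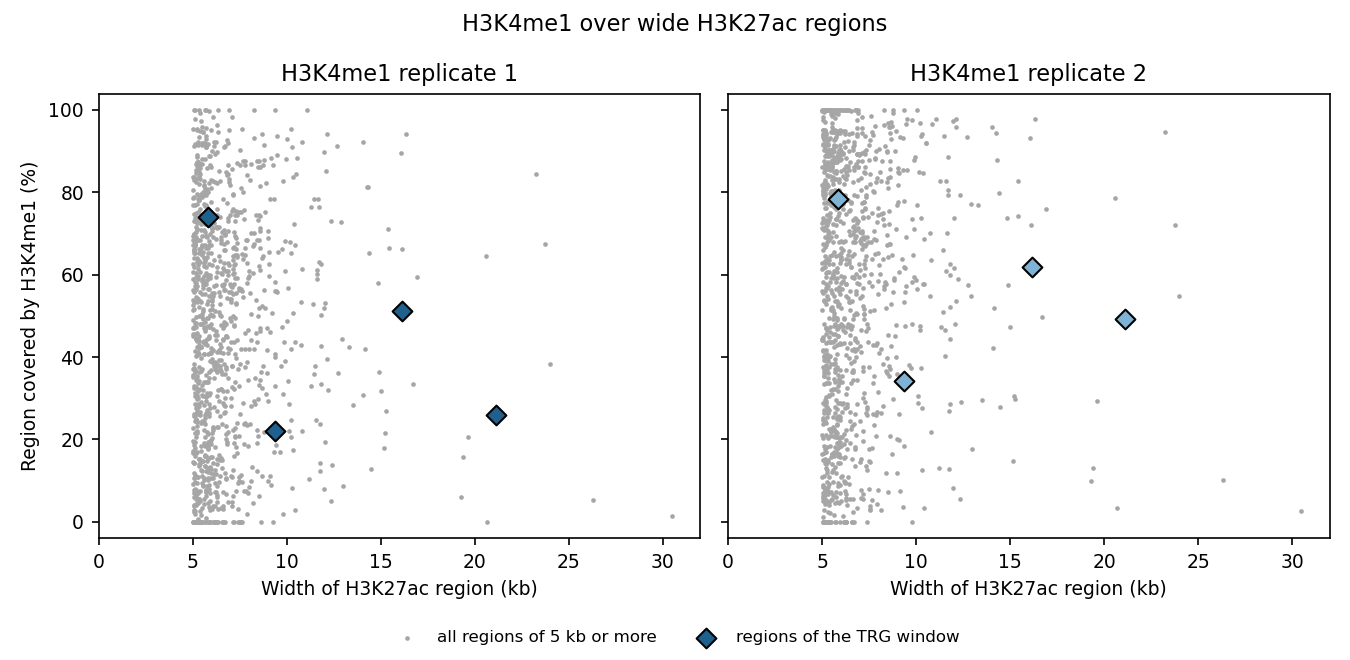
H3K27ac regions of 5 kb or more by width (x, kb) and the percentage covered by H3K4me1 replicate 1 (left) or 2 (right); grey points are all 1152 regions and diamonds the 4 of the TRG window. The diamonds spread from 22.0 to 73.9% on the left and from 34.1 to 78.3% on the right. The grey points range from 0 to 100% in both.

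At the low end of STARD3NL, an H3K27ac region carried no H3K4me1 in replicate 1 and some at its gene-side edge in replicate 2. The H3K27ac region ran from 38216920 to 38220350 (3431 bp), with 2 peaks in replicate 1 and 1 in replicate 2, and its high edge differed by 1 bp between libraries. H3K4me1 replicate 1 had 0% of it covered and replicate 2 had 22.7%, all in a peak from 38219573 at the side of the gene. From 38217107 to 38219562 (2456 bp) H3K27ac was present in both libraries and H3K4me1 in neither, the second longest such stretch of the window. Below the region, the nearest H3K4me1 peaks ended 7.04 kb away in replicate 1 and 6.89 kb in replicate 2. Above it, H3K4me1 replicate 1 began again after 1.09 kb, at 38221439.

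Inside STARD3NL, H3K27ac was limited to a few places until its far end. A region from 38235784 to 38237695 (1912 bp) carried H3K27ac in both libraries and was covered by H3K4me1 to 81.1 and 100%. The H3K4me1 region there, from 38235516 to 38237959 (2444 bp), was among the 5 widest of the window. H3K4me1 regions from 38224920 to 38226506 and from 38239831 to 38241168 lay on either side. The former met an H3K27ac peak in replicate 1 (29.2% covered) and none in replicate 2, and the latter met none. No peak of any library lay from 38226507 to 38235515 (9.01 kb). The H3K27ac peaks nearest to the far end of the interval were narrow, 293 and 411 bp wide, and ended 4044 and 4402 bp before it. A further 9.14 kb without any peak, from 38265957 to 38275096, separated the blocks at the far end of STARD3NL from those on the TRG side.

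The remaining TRG locus carried scattered, narrower regions. H3K27ac regions from 38318045 to 38320258 (2214 bp) and from 38375037 to 38376659 (1623 bp) were covered by H3K4me1 to 65.4 and 100% and to 100 and 100%. Their H3K4me1 regions, of 2626 and 2069 bp, reached beyond the H3K27ac edges on both sides. Of the 28 replicated H3K4me1 regions of the window, 4 met no H3K27ac peak of any library. These 4 were the one from 38239831 in STARD3NL and those from 38323132 (937 bp), 38325120 (1318 bp) and 38388511 (556 bp) in the TRG locus. The share of such regions over the genome was not computed. By the nearest measure, 22 of the 28 met a replicated H3K27ac region, against 47.1% of all replicated H3K4me1 regions. From 38360002 to 38372255 and from 38332072 to 38343132, on the sides of the 16.2 kb block, 12.3 and 11.1 kb carried no peak.

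Most H3K4me1 peaks of the window lay on H3K27ac, more than elsewhere, while H3K27ac peaks met H3K4me1 about as often as elsewhere. A peak counted as overlapping when it shared at least 1 bp with a peak of either library of the other mark. Of H3K4me1 peaks, 35 of 42 in replicate 1 (83.3%, exact 95% binomial interval 68.6 to 93.0%) and 34 of 41 in replicate 2 (82.9%, 67.9 to 92.8%) did so. Over all peaks of these lists the shares were 48.4 and 43.7%. Of H3K27ac peaks, 17 of 21 in replicate 1 (81.0%, 58.1 to 94.6%) and 22 of 30 in replicate 2 (73.3%, 54.1 to 87.7%) did so, against 82.3 and 80.5% of all peaks. Of replicated regions, 12 of 15 H3K27ac regions (80.0%, against 73.5% of all) met a replicated H3K4me1 region, and 22 of 28 H3K4me1 regions (78.6%, against 47.1%) a replicated H3K27ac region. The high H3K4me1 shares are a description, because a window chosen for long H3K27ac offers more H3K27ac to meet. The intervals treat peaks as independent and are not a test against the shares of all peaks. Of the H3K4me1 peaks, 6 and 7 lay on the H3K27ac region over TARP, and 9 and 6 on that of 16.2 kb.

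Averaged by mark, the share was 77.1 ± 5.39% for H3K27ac and 83.1 ± 0.287% for H3K4me1 (SD, n = 2 each), a difference of -5.99 points. The choice of the window by H3K27ac bears on the H3K4me1 share. Without H3K4me1 replicate 2 the difference was -23.3 points. H3K4me1 replicate 1 alone met 14 of 21 and 16 of 30 H3K27ac peaks, and replicate 2 alone 17 of 21 and 21 of 30. The shares over all peaks were computed against either library of the other mark. They are no background for these single-library counts, from which nothing is read.

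By length, H3K4me1 covered about as much of the H3K27ac here as it did genome-wide. H3K4me1 replicate 1 covered 40.1 and 40.8% of the H3K27ac length of replicates 1 and 2 in the window, against 41.8 and 42.4% genome-wide. H3K4me1 replicate 2 covered 56.9 and 58.7%, against 52.9 and 52.5%. The reverse share was higher in the window in all 4 pairings. H3K27ac covered 73.3 to 84.5% of the H3K4me1 length, against 31.8 to 42.2% genome-wide. Of the 63.8 kb with H3K27ac in both libraries, 39.9% had H3K4me1 in both, 21.3% in 1 and 38.8% in neither. H3K4me1 in both libraries without any H3K27ac made up 3.69 kb, and 65.4% of the window had neither mark in any library.

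By length, the libraries of a mark shared more here than genome-wide, while by number of peaks they did not do so throughout. Bases marked in both libraries were 85.9% of those marked in either for H3K27ac (76.9% genome-wide) and 57.0% for H3K4me1 (51.8%). The H3K27ac value is a description, because choosing a window for long H3K27ac favours a high shared length. The H3K4me1 value is given as a description too. The window was among the top 1% for H3K4me1, and its replicated H3K4me1 regions had a median width of 1328.5 bp, against 944 bp over all. Of window peaks, 16 of 21 and 26 of 30 H3K27ac peaks met a peak of the other H3K27ac library (76.2 and 86.7%, against 87.9 and 86% of all). For H3K4me1 it was 39 of 42 and 28 of 41 (92.9 and 68.3%, against 88.3 and 68.7%). The peaks seen in 1 library only had lower median widths than the shared peaks of their library. For H3K27ac, 5 and 4 such peaks had medians of 421 and 189 bp and reached 520 and 411 bp. For H3K4me1, 3 and 13 had medians of 216 and 474 bp and reached 504 and 1126 bp.

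Joined into domains, the H3K27ac regions linked the far end of STARD3NL with TARP and the block inside the TRG locus. With regions up to 12500 bp apart joined, the domain had a span of 106.0 kb and 9 regions, and its high end, 38360001, was the edge of the 16.2 kb block. The H3K27ac region at the low end of STARD3NL was not part of it. With a distance of 5 kb, TARP was in a domain of 45.2 kb from 38275097 to 38320258, and the blocks at the end of STARD3NL and at 38343846 stood apart. Among 122 domains with at least 20 kb of H3K27ac, the median share of H3K27ac length with H3K4me1 was 54.3% in replicate 1 and 67.0% in replicate 2. The domain of 106.0 kb, joined at 12500 bp, had 38.49 and 55.3%, and 26 and 29 of the 122 domains had less. These values are not those of the 45.2 kb domain.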

How the data were processed

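The files hold ChIP-seq peaks of H3K27ac and H3K4me1 in VCaP cells, 1 list for each of 4 libraries. Per the submitters' processing notes, the build was hg19 (GRCh37) and the tools included MACS2 2.1.0, Bowtie 1.1.2, Trimmomatic 0.33 and bcl2fastq 2.17. What each did, the threshold for a peak and any control are not given in the sources. The authors deposited 4 columns per list (chromosome, start, end and peak name), with no height, fold or significance, so depth is unknown. Intervals beside shares cover counting error over peaks only. Over the autosomes and chromosome X the lists held 54763 to 125320 peaks, with a smallest width of 172 to 232 bp that differed by list.

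Coverage and overlap were computed with Python 3.11.15 and numpy 2.4.6, in functions tested on simulated intervals, and exact binomial intervals with scipy 1.17.1. Starts are counted from 1. An overlap of 1 bp counted. Marks were compared by library, with groups and replicate numbers from the labels. Whether the libraries of a mark stem from different cultures is not in the labels, and their SD may reflect technical spread alone. The exact permutation tests planned for 2 shares draw on the H3K27ac that chose the window, and 2 against 2 libraries cannot give p below 0.333, so no p-value is reported. Windows of 250 kb that shared bases with the TRG window were left out of the ranks. The genes, intervals, tests and alternatives were chosen with earlier results of these data known. The text names every replicated H3K27ac region of 5 kb or more, the regions nearest to the ends of the TARP and STARD3NL intervals and the 5 widest H3K4me1 regions. Other regions were named after their values were seen.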

Additional observations from a re-analysis of the deposited data

How the results depend on the processing

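Of 116 alternatives over 16 results, 103 counted as kept, 12 as moved and 1 as reversed, by rules that differed between results. Some of the kept outcomes were fixed in advance, so their number is no measure of robustness. No peak crossed the window edge, so taking only peaks wholly inside the window could change nothing. Differences between marks were judged by direction, mean peak counts by a set factor, and the motif count by identity. Covered lengths, median widths and domain spans were judged by the SD between libraries. Leaving out 1 of 2 libraries moves a mean by less than that SD. The covered length and median width of a mark could thus only count as kept there. Ratios and the H3K4me1 share were judged by the SD over pairings, which share libraries. Bases marked in both libraries were judged by a binomial error over single bases, which is no spread between replicates. The reversal was the TRG share of the marked length, with a difference of -5.39 points when the division was at 38299000; the interval left out, between STARD3NL and TARP, holds much H3K27ac and little H3K4me1. Leaving out 1 library gave differences of 8.45 to 8.98 points for that share and of -23.3 to -2.18 points for peaks on the other mark. It also gave ratios of 1.38 to 1.98 for peak number (H3K4me1 to H3K27ac), 1.30 to 2.02 for covered length and 0.755 to 1.60 for median width (both H3K27ac to H3K4me1), and domain spans of 105.9 to 108.4 kb. With peaks of at least 500 bp only, the mean H3K27ac count was 16, the median width was 1690.25 bp in H3K27ac and 1142.5 bp in H3K4me1, and the bases marked in both libraries were 86.3 and 54.6%. A common smallest width and joining distance of 232 bp gave 86.9 and 57.8%. Joining distances of 5 and 25 kb gave domains of 45.2 and 199.9 kb, as they join fewer or more regions. Same-numbered libraries showed no positive correlation of deviations over windows of 100 kb. It was -0.434 in covered bp, -0.159 as a share of the library and -0.0104 as the logarithm of that share. These values cannot tell whether same-numbered libraries were prepared together, which the labels do not give. A replicate block gave ratios of 1.68 for peak number, 1.68 for covered length and 1.39 for median width, and 49.4% of H3K27ac length with H3K4me1. Its differences of 8.72 and -5.99 points had to stay as they were. With 2 libraries per mark, the mean of paired differences equals the difference of means under any pairing. Crossed numbers, chosen after seeing the data, gave 1.68, 1.65, 1.15 and 48.9%. Bases marked in both libraries could not be given without a library of the mark, and depth, which sets how many peaks are found, is unknown.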
